A study of Mus musculus with 12 samples.

Results

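Immediate early genes are transcribed within minutes of a stimulus without new protein synthesis. The 10 described here are 7 genes of the FOS and JUN families (Fos, Fosb, Fosl1, Fosl2, Jun, Junb, Jund), the zinc finger gene Egr1, the CREB-related gene Atf3 and the small response gene Ier2. They were chosen as a family by name, with earlier results of these data known, and matched by symbol to the Ensembl identifiers of the count files, where they are 10 of 43629 gene identifiers. All 10 passed the filter on low counts and were among the 15059 genes tested.

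RNA was sequenced from 12 libraries of the C57BL/6 strain, 3 in each of 4 groups. E libraries came from mouse embryonic fibroblasts that had carried an empty vector for 3 weeks, and GHMT libraries from such fibroblasts 3 weeks after the heart transcription factors Gata4, Hand2, Mef2c and Tbx5. AGHMT-labelled libraries had the same factors and the kinase Akt, named Akt1 in the title of the series, and CM libraries came from isolated adult ventricular cardiomyocytes. GHMT and AGHMT-labelled cells were sorted on green fluorescent protein driven by the αMHC (Myh6) promoter, so both groups were selected for activity of that heart muscle promoter. The purity of the sort was not tested.

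FOS and JUN proteins bind each other through leucine zippers to form the transcription factor AP-1. JUN proteins can also pair among themselves, whereas FOS proteins need a partner, and the members differ in how strongly they activate transcription. Growth factors, stretch and stress induce these genes through MAP kinases, and in the heart they are known for a rapid, transient response to pressure load and ischaemia. Enzymatic dissociation of tissue and cell sorting are also known to induce several of them. The labels give a sort for GHMT and AGHMT-labelled cells and an isolation for CM, and neither for E. In every comparison with E, cell handling and cell identity therefore cannot be told apart.

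The promoters of 3 members are shown because Fos passed as higher than in E in all 3 other groups, Jun did so in CM alone, and Junb had the largest rise after Fos in GHMT. Each sequence holds the 250 bases before the transcription start that RefSeq gives on GRCm38.p6, read 5′ to 3′ on the gene's strand, and capitals mark motif matches. The windows are chr12:85473640-85473889 on the plus strand for Fos, chr4:95052223-95052472 on the minus strand for Jun and chr8:84978749-84978998 on the minus strand for Junb.
Fos: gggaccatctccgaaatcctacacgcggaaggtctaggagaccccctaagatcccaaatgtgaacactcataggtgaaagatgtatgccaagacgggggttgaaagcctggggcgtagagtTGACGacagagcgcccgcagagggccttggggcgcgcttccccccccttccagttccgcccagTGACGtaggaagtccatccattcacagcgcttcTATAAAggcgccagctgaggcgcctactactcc
Jun: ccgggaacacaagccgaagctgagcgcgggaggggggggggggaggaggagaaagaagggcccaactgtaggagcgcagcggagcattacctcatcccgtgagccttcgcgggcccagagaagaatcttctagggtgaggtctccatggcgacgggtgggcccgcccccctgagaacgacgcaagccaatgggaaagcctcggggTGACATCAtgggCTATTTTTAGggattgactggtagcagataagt
Junb: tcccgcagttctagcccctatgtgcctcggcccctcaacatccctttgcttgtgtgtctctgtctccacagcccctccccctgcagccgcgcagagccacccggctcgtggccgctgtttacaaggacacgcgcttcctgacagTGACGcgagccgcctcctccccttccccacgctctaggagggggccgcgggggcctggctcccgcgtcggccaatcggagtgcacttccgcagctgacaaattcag

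Positions are counted backwards from the base before the start, which is -1. The Fos window held TGACG, the core of the cyclic AMP response element, at -129 to -125 and at -66 to -62, and TATAAA at -33 to -28. TGACG was found on either strand in 17.8% of 32851 RefSeq promoter windows of this length and TATAAA in 12.4%. The Jun window held TGACATCA, an AP-1-like element, at -45 to -38, a form found in 2.93% of the windows. It also held a site of the MEF2 consensus at -33 to -24, which matches on both strands, and 2.92% of the windows held such a site. Atf3 held another at -22 to -13. The Junb window held TGACG at -106 to -102. RefSeq entries were matched for 7 of the 10 members, and TGACG was also found in Fosb and Atf3. The EGR site GCGNGGGCG was found in Fosb and Fosl2 and in 4.70% of all windows. Neither the full element TGACGTCA, of which TGACG is a part (1.55% of all windows), nor the AP-1 site TGANTCA (6.75%) nor the CArG box of serum response factor (1.47%) had a match in the members' windows. Both strands were searched, the motifs were picked with the sequences in view, and a match describes the letters only. Bases further upstream and the members without a matched entry (Fosl1, Egr1 and Ier2) were not searched, so sites there are not excluded. RefSeq starts can also differ from the gene starts used for the counts. The Jund window ends at 70697738, whereas the gene starts at 70698949.

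Akt1 itself was read first as a check of the labels. In normalised counts (CPM, counts scaled to the library size) it stood at 7.30, 12.002 and 19.6 in the AGHMT-labelled libraries 1 to 3, and at 1.31, 13.5 and 13.7 in GHMT 1 to 3. The E libraries held 104, 64.1 and 21.004 CPM, so no AGHMT-labelled library exceeded any E library, and every direction given for that group rests on its label. Myh6, whose promoter was used for the sort, ranged from 28.8 to 71.5 CPM in GHMT, 104 to 223 in AGHMT-labelled cells and 2268 to 17410 in CM, against 0.519 to 1.56 in E. The fibroblast markers fixed for E were all detected there, with 10 of 10 genes and a summed level of 15535 to 16297 CPM.

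Depth differed widely and limits the low members. Reads in genes numbered 1872558 to 2200815 per GHMT library, 14386407 to 18493989 in AGHMT-labelled, 5120230 to 15952646 in CM and 15971154 to 33552138 in E. Since 27.8% to 72.2% of the GHMT reads were mitochondrially encoded, 3 reads stood for 1.56 to 3.93 CPM there, against 0.164 to 0.231 CPM in AGHMT-labelled libraries. CPM are scaled with edgeR's trimmed mean of M values. Adjusted p-values come from the quasi-likelihood test of edgeR, adjusted by Benjamini and Hochberg's method over all 15059 genes and called at 0.05, and differences are log2 fold changes with their standard error (SE). The labels do not say that replicates came from separate cultures or animals, so the p-values measure only the spread between these libraries, which may be technical. In bulk RNA, fewer cells of a type and less RNA per cell cannot be told apart.

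A trend with base composition ran through the libraries and touches every member. The transcripts of all 10 are richer in G and C than the median tested gene (48.8%), from 51.9% in Fos to 67.1% in Jund, and 5 of them lie above the 90th percentile. Per 10 points of GC content, a gene's level relative to the mean of the libraries changed by -1.17 to -0.86 in GHMT and -0.91 to -0.48 in AGHMT-labelled libraries on the log2 scale. The slope was 0.05 to 1.33 in E and 0.35 to 1.98 in CM, with the steepest slopes in E 1 and CM 3. A fit that removes this trend from each library was run beside the main one, and its value is given beside the members' results where it turned a direction or changed a call. Its part in the differences between groups was not tested further.

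Fos, the founding FOS gene (ENSMUSG00000021250, mm10 chromosome 12, 85473890 to 85477273, 4 exons), had the largest rise over E of all members in each of the other groups. It stood at 1.94, 2.87 and 2.32 CPM in E 1 to 3 and at 239, 263 and 113 in GHMT 1 to 3. AGHMT-labelled libraries held 132, 106 and 150 CPM and CM libraries 78.9, 86.6 and 110. Every library of the other 3 groups lay above every E library by more than an order of magnitude, and GHMT 3 was the lowest of its group. Against E the log2 fold change was 6.43 in GHMT (SE 0.42, adjusted p = 5.51e-08), 5.77 in AGHMT-labelled cells (SE 0.41, adjusted p = 1.14e-07) and 5.27 in CM (SE 0.40, adjusted p = 1.16e-07). These 3 comparisons share the E libraries, so they are not independent of each other. Each of the calls held in all 25 alternative analyses, over ranges of 4.99 to 8.81, 4.62 to 6.44 and 4.32 to 5.72. GHMT was also above CM, by 1.15 (SE 0.34, adjusted p = 0.00923), but that call ended in 9 of 25 alternatives, with DESeq2's size factors and DESeq2 among them. AGHMT-labelled cells differed from neither GHMT (-0.66, 95% interval -1.37 to 0.05, adjusted p = 0.175) nor CM (0.49, -0.21 to 1.20, adjusted p = 0.229) beyond the spread. With the GC correction, Fos in AGHMT-labelled cells passed as lower than in GHMT (-2.37, adjusted p = 0.00119) and higher than in CM (1.12, adjusted p = 0.0437).

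Fosb, a close relative of Fos known for stable products that build up under repeated stimulation (ENSMUSG00000003545, chromosome 7, 19302696 to 19310051, 4 exons), separated AGHMT-labelled from GHMT libraries. It had 1.004, 0.575 and 0.520 CPM in E and 19.0, 15.9 and 17.2 in AGHMT-labelled libraries. CM libraries had 14.7, 7.45 and 32.3 CPM. GHMT libraries had 0, 5.73 and 2.06 CPM from 0, 11 and 3 reads, so that the group overlapped with E. AGHMT-labelled cells exceeded E by 4.60 (SE 0.74, adjusted p = 2.79e-04) and CM exceeded E by 4.66 (SE 0.75, adjusted p = 1.45e-04), and both calls held in 25 of 25 alternatives. In GHMT against E the log2 fold change of 2.08 (SE 0.80) passed at adjusted p = 0.0395, but 15 of 25 alternatives ended that call. Fosb was 2.52 higher in AGHMT-labelled than in GHMT libraries (SE 0.76, adjusted p = 0.0350), a call that ended in 11 of 25 alternatives, the GC correction (1.20, adjusted p = 0.122) among them. It was 2.58 lower in GHMT than in CM on the log2 scale (-2.58, adjusted p = 0.0102), where the GC correction turned the sign (0.48, adjusted p = 0.517) and leaving out GHMT 1, CM 3 and E 1 together ended the call. Between AGHMT-labelled cells and CM the difference was -0.06 (95% interval -1.41 to 1.30), and 1.68 after the GC correction (adjusted p = 0.00847).

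Fosl1, which encodes FRA1, an AP-1 subunit of growing and migrating cells (ENSMUSG00000024912, chromosome 19, 5447547 to 5455946, 4 exons), went the other way from Fos. E libraries held 8.01, 11.4 and 3.88 CPM, and CM libraries 1.41, 0.805 and 2.06. AGHMT-labelled libraries held 0.231, 0.110 and 0.218 CPM from 3, 2 and 4 reads, and no GHMT library had a read. E stood above all 9 other libraries. With 3 reads pooled over the GHMT libraries as the floor, Fosl1 was at least 10.7-fold lower in GHMT than in E (adjusted p = 6.87e-04) and at least 1.97-fold lower than in CM (adjusted p = 0.0148). It was lower than in E by 5.34 on the log2 scale in AGHMT-labelled cells (-5.34, SE 0.77, adjusted p = 1.83e-04) and by 2.46 in CM (-2.46, SE 0.66, adjusted p = 0.00842). The calls against E held in every alternative that tested the gene, except that thinning all libraries to 1 depth ended the one in CM. AGHMT-labelled cells were also below CM (-2.88, SE 0.74, adjusted p = 0.00711), but neither this call nor that of GHMT against CM outlasted the GC correction (adjusted p = 0.243 and 0.328). Ccdc85b overlaps Fosl1 on the opposite strand, with at most 25.6 CPM in any library. Whether the counting used strand is not known here, so reads of both genes cannot be told apart there.

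Fosl2, which encodes FRA2 (ENSMUSG00000029135, chromosome 5, 32135801 to 32157842, 4 exons), was the only member lower in CM than in the 3 groups derived from fibroblasts. It stood at 140, 119 and 116 CPM in E, 184, 242 and 257 in GHMT and 240, 190 and 215 in AGHMT-labelled libraries. CM libraries held 26.8, 27.2 and 25.3 CPM, the narrowest spread of any member in that group. CM lay below E (-2.24, SE 0.26, adjusted p = 8.62e-06), and GHMT and AGHMT-labelled cells lay above CM by 3.11 (SE 0.28, adjusted p = 6.43e-07) and 3.03 (SE 0.27, adjusted p = 1.92e-06). These 3 calls held in 25 of 25 alternatives. Against E, GHMT (0.87, SE 0.25, adjusted p = 0.0111) and AGHMT-labelled cells (0.78, SE 0.25, adjusted p = 0.0208) passed as higher, but with scaling to total counts the signs turned (-0.48 and -0.06). A further 5 of 25 alternatives ended the call in GHMT and 10 of 25 that in AGHMT-labelled cells. The median of all genes moved with that scaling too, from -1.06 to -2.38 in GHMT against E and from -0.16 to -0.99 in AGHMT-labelled against E. Relative to that median Fosl2 stood 1.92 higher in GHMT and 0.95 higher in AGHMT-labelled cells, and 1.89 and 0.92 higher with total counts. Without E 1 the GHMT difference was 0.35 (adjusted p = 0.379). Between AGHMT-labelled and GHMT libraries Fosl2 differed by -0.08 (adjusted p = 0.835), but it passed as lower with the GC correction (-1.69, adjusted p = 0.00115).

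**Figure D1:**
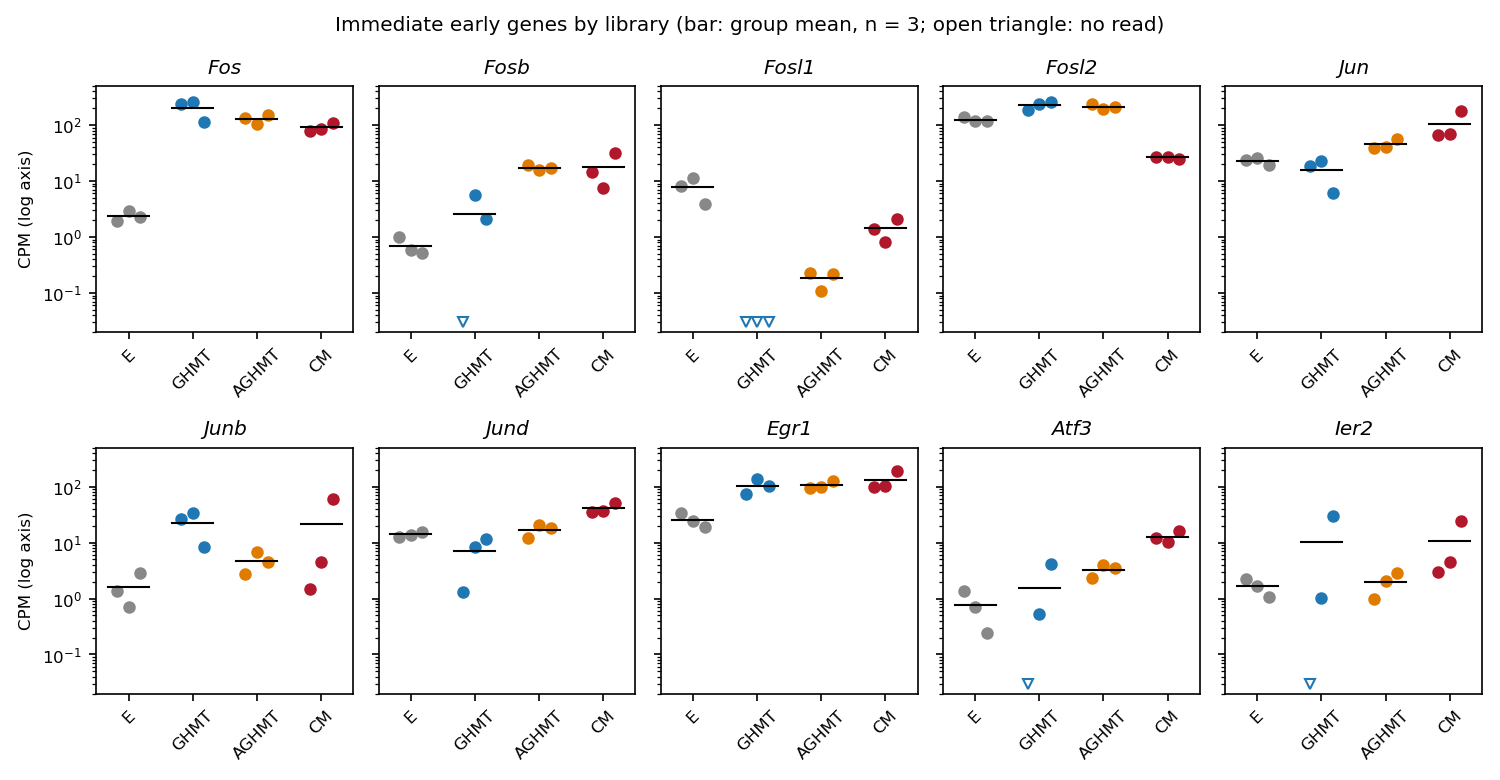
Level of each member in every library, in CPM on a log axis, for the 4 groups of 3 libraries; horizontal bars are group means and open triangles at the bottom mark libraries without a read. Fos lies near 2 CPM in E and above 78 CPM in every library of the other groups, Fosl1 is highest in E, and Fosl2 is lowest in CM.

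Jun, the main partner of Fos (ENSMUSG00000052684, chromosome 4, 95049034 to 95052222, 1 exon), was highest in CM and did not follow Fos in the sorted groups. Its levels were 23.8, 25.7 and 19.1 CPM in E and 18.4, 22.9 and 6.19 in GHMT, the latter from 14, 44 and 9 reads. AGHMT-labelled libraries held 38.9, 39.9 and 56.5 CPM, and CM libraries 67.4, 69.4 and 177. E and GHMT overlapped, the AGHMT-labelled libraries lay above both, and CM lay above all others, with CM 3 far above the rest. CM exceeded E by 2.19 (SE 0.47, adjusted p = 0.00153), and only scaling to total counts ended that call. GHMT against E gave -0.53 (95% interval -1.57 to 0.51, adjusted p = 0.365) and AGHMT-labelled against E 0.98 (0.01 to 1.95, adjusted p = 0.0878). Both passed as higher once corrected for GC, at 2.24 (adjusted p = 0.00193) and 2.29 (adjusted p = 9.60e-04). With total counts GHMT instead passed as lower than E (-1.95, where the median of all genes was -2.38). Jun was 1.51 higher in AGHMT-labelled than in GHMT libraries (SE 0.49, adjusted p = 0.0469), a call that 14 of 25 alternatives ended and that fell to 0.05 after the GC correction. It was lower than in CM in GHMT (-2.72, SE 0.51, adjusted p = 4.58e-04) and in AGHMT-labelled cells (-1.21, SE 0.46, adjusted p = 0.0394), and both signs turned after the GC correction (0.30 and 0.35). The call in AGHMT-labelled cells also ended in 10 of 25 alternatives. The antisense gene Junos overlaps Jun, with 0.23 to 1.36 CPM as group means.

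Junb, which is often a weaker activator than Jun and competes with it (ENSMUSG00000052837, chromosome 8, 84974484 to 84978718, 1 exon), varied widely between the libraries of CM. It had 1.37, 0.710 and 2.81 CPM in E and 26.2, 33.9 and 8.25 in GHMT. AGHMT-labelled libraries had 2.69, 6.88 and 4.47 CPM, and CM libraries 1.49, 4.53 and 59.4. All GHMT libraries lay above all E and AGHMT-labelled ones, while in CM a single library, CM 3, set the mean. GHMT exceeded E by 3.80 (SE 1.11, adjusted p = 0.0106), a call that ended with total counts and without E 1 (3.02, adjusted p = 0.0803). CM exceeded E by 3.72 (SE 1.08, adjusted p = 0.0120), but without CM 3 by 0.88 (adjusted p = 0.373). AGHMT-labelled cells did not pass against E (1.52, adjusted p = 0.226) or GHMT (-2.28, 95% interval -4.51 to -0.05, adjusted p = 0.140). They passed against both once corrected for GC, at 3.27 (adjusted p = 0.00591) and -3.23 (adjusted p = 0.0100). GHMT and CM differed by 0.08 (95% interval -2.06 to 2.22), without CM 3 by 2.92 (adjusted p = 0.0116), and corrected for GC by 4.45 (adjusted p = 7.82e-04). AGHMT-labelled cells against CM gave -2.20 (adjusted p = 0.0869), which passed in 7 of 25 alternatives and turned to 1.22 (adjusted p = 0.220) with the GC correction. Prdx2 overlaps the end of Junb on the opposite strand and stood highest in CM (155 ± 60.7 CPM, SD, n = 3) and lowest in GHMT (4.67 ± 1.84), so Junb reads where the genes overlap are uncertain.

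Jund, the JUN gene that is usually expressed without a stimulus (ENSMUSG00000071076, chromosome 8, 70698949 to 70700616, 1 exon), ranged less than the other members outside GHMT. It held 12.6, 13.9 and 15.3 CPM in E, 11.8, 20.5 and 18.2 in AGHMT-labelled libraries and 34.6, 37.0 and 51.2 in CM. GHMT libraries held 1.31, 8.34 and 11.7 CPM from 1, 16 and 17 reads. CM lay above all others, and GHMT lay just below E. CM exceeded E by 1.55 (SE 0.48, adjusted p = 0.0166), a call that ended with total counts, after the GC correction (1.60, adjusted p = 0.0664) and without E 1 or E 2. GHMT (-0.88, adjusted p = 0.164) and AGHMT-labelled cells (0.27, adjusted p = 0.653) did not pass against E. In 3 of 25 alternatives GHMT passed as lower, with DESeq2, with limma and with total counts (-2.15, where the median of all genes was -2.38). With the GC correction GHMT turned to 1.97 (adjusted p = 0.0620), and AGHMT-labelled cells passed at 2.49 (adjusted p = 0.0116). Both passed as lower than CM, GHMT by -2.43 (SE 0.53, adjusted p = 0.00157) and AGHMT-labelled cells by -1.28 (SE 0.48, adjusted p = 0.0382), and both signs turned after the GC correction (0.37 and 0.89). In AGHMT-labelled cells 11 of 25 alternatives ended that call. Jund has the highest GC content of the members.

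Egr1, a zinc finger activator induced by the same kinases as Fos (ENSMUSG00000038418), stood at a like level in the 3 groups other than E. Its levels were 33.6, 24.7 and 18.8 CPM in E, 74.7, 135 and 102 in GHMT, 93.5, 97.8 and 124 in AGHMT-labelled libraries and 97.7, 102 and 189 in CM. All 9 other libraries lay above the 3 E libraries. Against E the log2 fold change was 2.03 in GHMT (SE 0.36, adjusted p = 4.69e-04), 2.03 in AGHMT-labelled cells (SE 0.36, adjusted p = 5.42e-04) and 2.33 in CM (SE 0.36, adjusted p = 1.12e-04). Scaling to total counts ended the first 2 (0.71, adjusted p = 0.261, and 1.20, adjusted p = 0.0829), and no alternative ended that of CM. Among themselves the 3 groups differed by 0.01 (AGHMT-labelled against GHMT, 95% interval -0.74 to 0.75), -0.30 (GHMT against CM, -1.05 to 0.44) and -0.30 (AGHMT-labelled against CM, -1.03 to 0.44). These became, corrected for GC, -1.27 (adjusted p = 0.00757), 2.69 (adjusted p = 1.26e-05) and 1.42 (adjusted p = 0.00239), so their order depends on that choice.

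Atf3, a stress-induced repressor that can pair with JUN (ENSMUSG00000026628, chromosome 1, 191170296 to 191218039, 4 exons), was highest in CM. It held 11.96, 10.1 and 16.1 CPM there, 1.34, 0.710 and 0.245 in E and 2.31, 3.96 and 3.49 in AGHMT-labelled libraries. GHMT libraries held 0, 0.521 and 4.12 CPM from 0, 1 and 6 reads, too few to place the group. CM libraries lay above all 9 others, and AGHMT-labelled libraries above all E libraries. CM exceeded E by 4.02 (SE 0.80, adjusted p = 8.39e-04), in 23 of 23 alternatives. AGHMT-labelled cells exceeded E by 2.06 (SE 0.74, adjusted p = 0.0336), a call that 9 of 23 alternatives ended. GHMT did not pass against E (1.11, 95% interval -0.87 to 3.09), but did with the GC correction (3.47, adjusted p = 0.00418). Between AGHMT-labelled cells and GHMT the difference was 0.96 (adjusted p = 0.476), and -0.53 with that correction (adjusted p = 0.621). GHMT (-2.92, SE 0.89, adjusted p = 0.0120) and AGHMT-labelled cells (-1.96, SE 0.73, adjusted p = 0.0382) passed as lower than CM, and the GC correction ended both calls (adjusted p = 0.402 and 0.0517), the second of which ended in 10 of 23 alternatives.

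Ier2, a small nuclear response protein gene (ENSMUSG00000053560, chromosome 8, 84661331 to 84662852, 1 exon), passed in none of the 6 comparisons in the main fit. It had 2.26, 1.66 and 1.07 CPM in E, 0.999, 2.04 and 2.84 in AGHMT-labelled libraries and 2.97, 4.53 and 24.7 in CM. GHMT libraries had 0, 1.04 and 30.2 CPM from 0, 2 and 44 reads, so GHMT 3 alone set the mean. Against E the log2 fold changes were 2.69 in GHMT (95% interval 0.26 to 5.12, adjusted p = 0.0592), 0.24 in AGHMT-labelled cells (-2.01 to 2.49) and 2.67 in CM (0.31 to 5.02, adjusted p = 0.0647). Of 25 alternatives, 9 called it higher than E in CM, DESeq2 among them, and 6 in GHMT. Corrected for GC, Ier2 passed as higher than E in GHMT (5.84, adjusted p = 3.74e-04) and AGHMT-labelled cells (2.29, adjusted p = 0.0490). Without GHMT 3 the difference of GHMT from CM, 0.02 with all libraries, was -3.91 (adjusted p = 0.0216), whereas with the GC correction it was 3.82 (adjusted p = 0.00414). AGHMT-labelled cells against CM gave -2.43 (adjusted p = 0.0814), which passed in 6 of 25 alternatives. With the GC correction that difference became 0.27 (adjusted p = 0.823). Against GHMT, AGHMT-labelled cells gave -2.45 (adjusted p = 0.145), and with that correction Ier2 passed as lower (-3.55, adjusted p = 0.0119). CM 3, the CM library with the steepest GC trend, was the highest of its group for 9 of the 10 members, all but Fosl2.

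**Figure D2:**
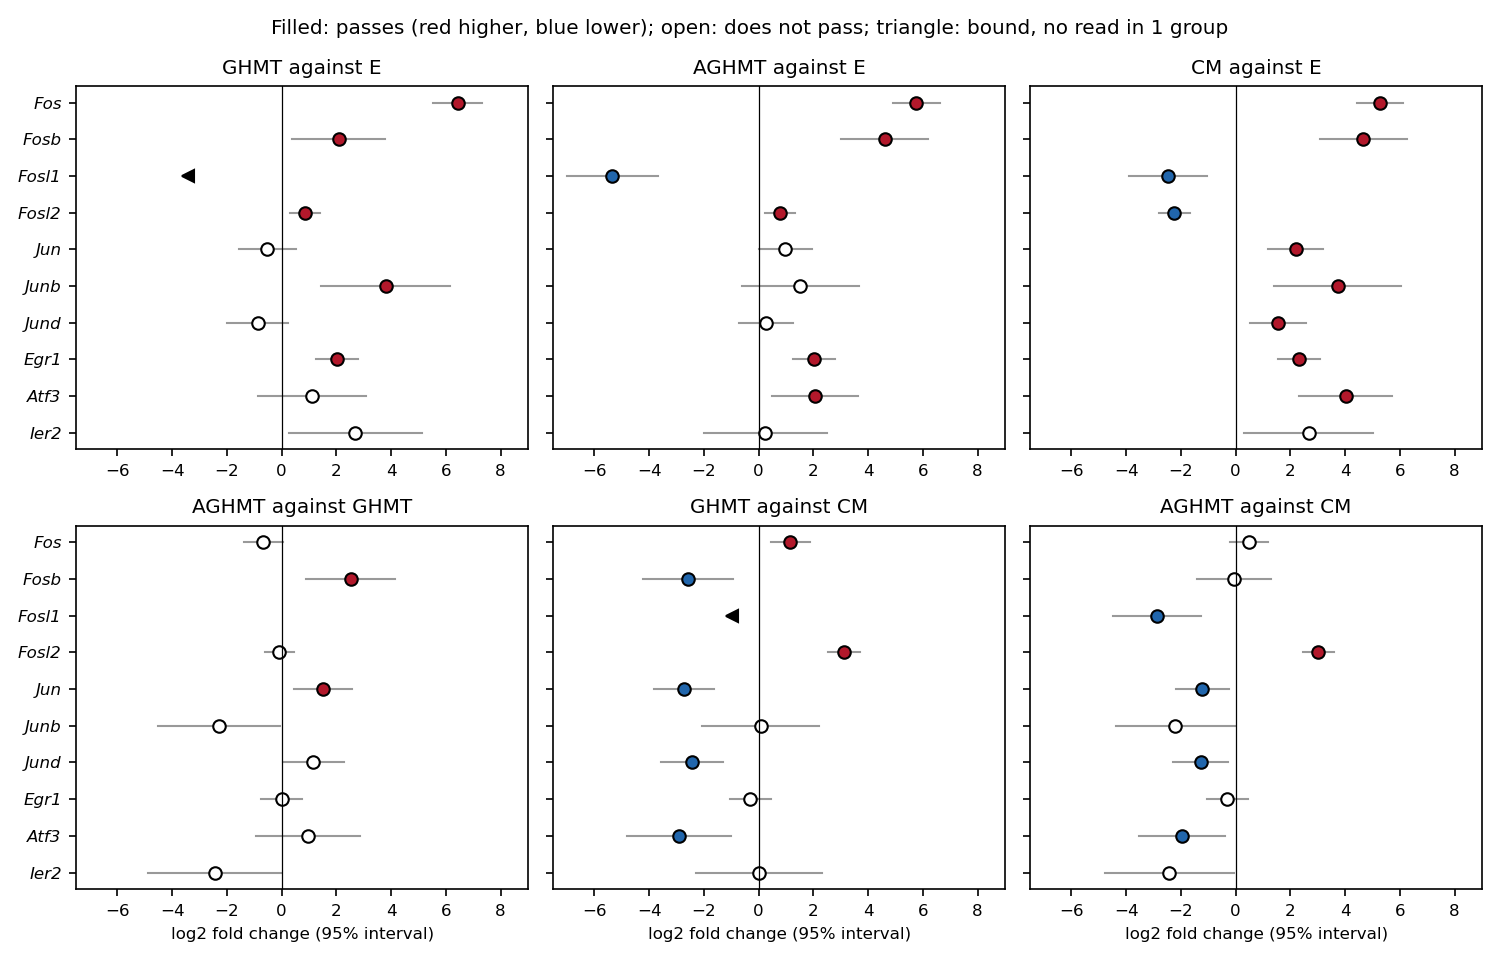
Log2 fold change of each member with its 95% interval in the 6 comparisons; filled points pass the quasi-likelihood test (red higher, blue lower in the first group), open points do not, and triangles for Fosl1 mark the bound from 3 pooled reads where GHMT has none. Fosl1 is left out of AGHMT against GHMT, Fos lies between 5.27 and 6.43 in all 3 comparisons with E, and Fosl2 lies on opposite sides of zero in the comparisons of CM with E and of both sorted groups with CM.

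Counted over the members, Fos, Fosb, Fosl2, Junb and Egr1 passed as higher in GHMT than in E and Fosl1 as lower, which is 6 of 10 where 52.6% of all genes passed. In the upward direction the 5 of 10 stand beside 19.8% of all genes and in the downward direction the 1 of 10 beside 32.9%. In AGHMT-labelled cells against E, Fos, Fosb, Fosl2, Egr1 and Atf3 passed as higher and Fosl1 as lower, 6 of 10 where 46.5% of all genes passed (21.9% higher, 24.6% lower). In CM against E, 7 passed as higher and 2 as lower, 9 of 10 where 42.0% of all genes passed (19.5% higher, 22.5% lower). In GHMT against E, 4 members lay above E in all libraries and 2 below, 6 of 10 beside 59.5% of all genes (15.5% above, 43.9% below). In AGHMT-labelled cells 6 lay above and 1 below, 7 of 10 beside 71.6% (34.8% above, 36.9% below), and in CM 7 and 2, 9 of 10 beside 57.2% (24.6% above, 32.6% below). The median log2 fold change of the 10 was 1.57, 1.25 and 2.50 in these 3 comparisons, beside -1.06, -0.16 and -0.26 over all genes tested. With genes that had no read in 1 group set at their bound, the median of all genes in GHMT against E was -0.34 and that of the members stayed at 1.57. In GHMT and in AGHMT-labelled cells 9 of the 10 lay above the fitted median of all genes, and in CM 8 did. Those counts against the fitted median were the same with DESeq2's size factors, total counts, scaling without mitochondrially encoded genes and the GC correction. The count in GHMT depends on the genes without reads. With the median at -0.34, Jun (-0.53) and Jund (-0.88) lay below it as well as Fosl1.

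Between AGHMT-labelled and GHMT libraries only Fosb and Jun passed, both as higher, 2 of 10 beside 17.8% of all genes (13.2% higher, 4.58% lower), a share near the background. No member passed with DESeq2's size factors or with only these 2 groups in the fit, and after the GC correction Fos, Fosl2, Junb, Egr1 and Ier2 passed as lower. That correction called 904 of all genes higher and 3780 lower here, against 1993 and 689 in the main fit. In GHMT against CM, Fos and Fosl2 passed as higher and Fosb, Fosl1, Jun, Jund and Atf3 as lower, 7 of 10 beside 58.6% of all genes (23.8% higher, 34.7% lower). In AGHMT-labelled cells against CM, Fosl2 passed as higher and Fosl1, Jun, Jund and Atf3 as lower, 5 of 10 beside 48.1% (23.7% higher, 24.4% lower). With the GC correction no member passed as lower than CM in either group, and 5 and 4 passed as higher. Of all genes, 4912 passed as higher and 2482 as lower in GHMT with it, and 2950 and 3325 in AGHMT-labelled cells. The values of Fosl1 and Atf3 stayed below 0 with that correction but did not pass, and Fosl2 passed as higher either way. By library, AGHMT-labelled cells lay above GHMT without overlap for 4 members and below for 1, 5 of 10 beside 45.9% of all genes (37.4% above, 8.47% below). GHMT lay above CM for 2 and below for 5, 7 of 10 beside 58.6% (18.4% above, 40.2% below), and AGHMT-labelled cells above CM for 1 and below for 5, 6 of 10 beside 70.5% (36.7% above, 33.9% below).

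**Figure D3:**
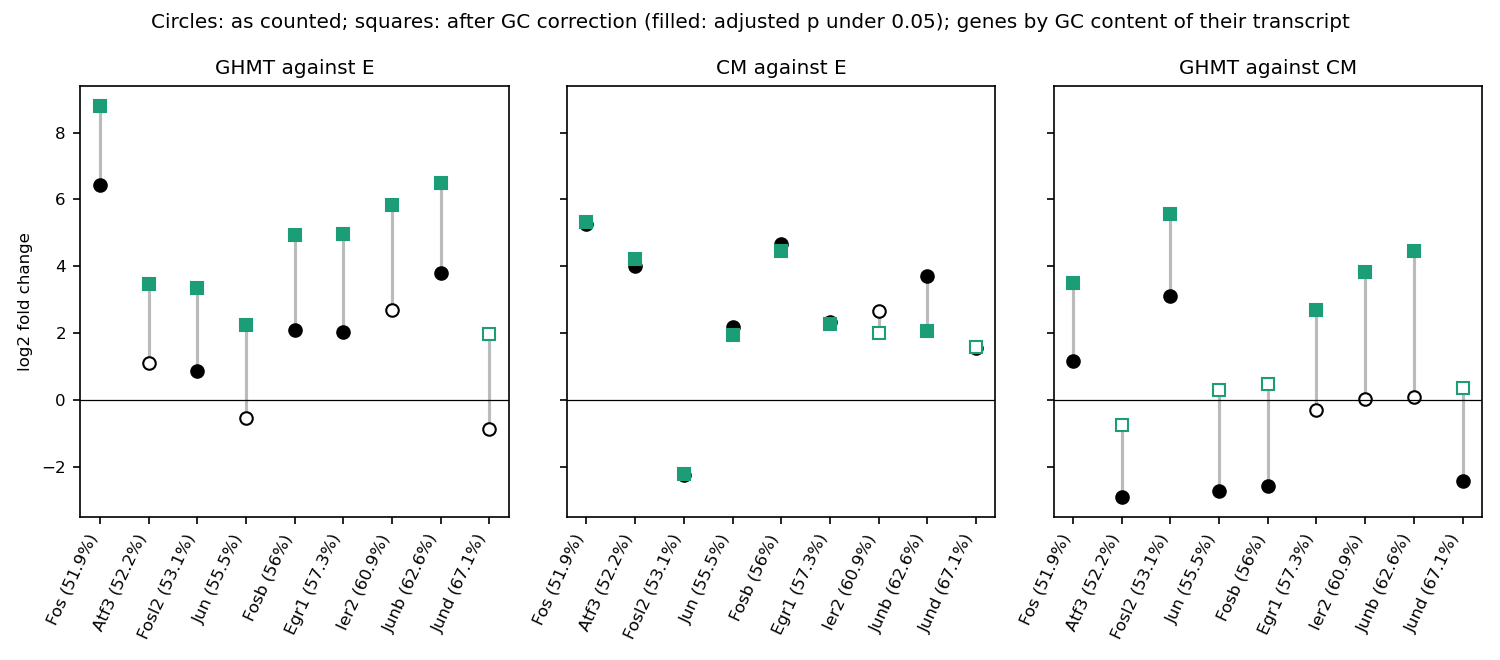
Log2 fold change of 9 members in GHMT against E, CM against E and GHMT against CM, as counted (circles) and after the GC correction (squares), filled where adjusted p is under 0.05; genes are ordered by the GC content of their transcript, and Fosl1 is left out because GHMT had no read. The squares lie above the circles for all 9 genes in the panels with GHMT, crossing zero for Jun and Jund against E and for Fosb, Jun, Jund and Egr1 against CM, and stay close to them in CM against E except for Junb and Ier2.

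Set per kilobase of exon, which allows levels of different genes to be compared, the make-up of the FOS family differed between groups. Fosl2 held 63.9% to 80.1% of the summed FOS-family RPKM in the E libraries, Fosl1 12.7% to 29.2% and Fos 4.25% to 6.58%. In GHMT libraries Fos held 64.1% to 84.3%, in AGHMT-labelled libraries 66.8% to 71.8% and in CM 84.2% to 89.3%. Fos thus went from the third to the first FOS gene by level in each of the 9 libraries, with Fosl2 second in GHMT (15.7% to 35.5%) and AGHMT-labelled libraries (24.99% to 29.4%). In CM, Fosb (2.90% to 9.28%) and Fosl2 (4.68% to 7.02%) held like shares. The summed FOS level was 17.9 ± 2.47 RPKM in E, 111 ± 32.5 in GHMT, 80.1 ± 11.3 in AGHMT-labelled libraries and 45.4 ± 8.98 in CM (SD, n = 3 each).

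The JUN family lay closer to E in the sorted groups than in CM. Its summed level was 16.2 ± 0.531 RPKM in E, 19.1 ± 7.26 in GHMT, 26.3 ± 5.24 in AGHMT-labelled libraries and 66.9 ± 39.2 in CM. Jun and Jund shared most of it in E, with 44.2% ± 6.65 and 51.5% ± 4.04, and likewise in CM and AGHMT-labelled libraries. In GHMT, Junb held 63.5%, 54.7% and 28.6%, and in GHMT 3 Jund held most with 55.9%, from 17 reads. The ratio of summed FOS to summed JUN RPKM was 5.12 to 6.71 in GHMT, 2.42 to 4.12 in AGHMT-labelled libraries, 0.914 to 1.24 in E and 0.497 to 0.926 in CM. The sorted groups thus lay above both E and CM without overlap, while E and CM overlapped. This ratio sets genes of different GC content against each other, since Fos has the lowest and Jund the highest of the members, and it was not corrected for GC.

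**Figure D4:**
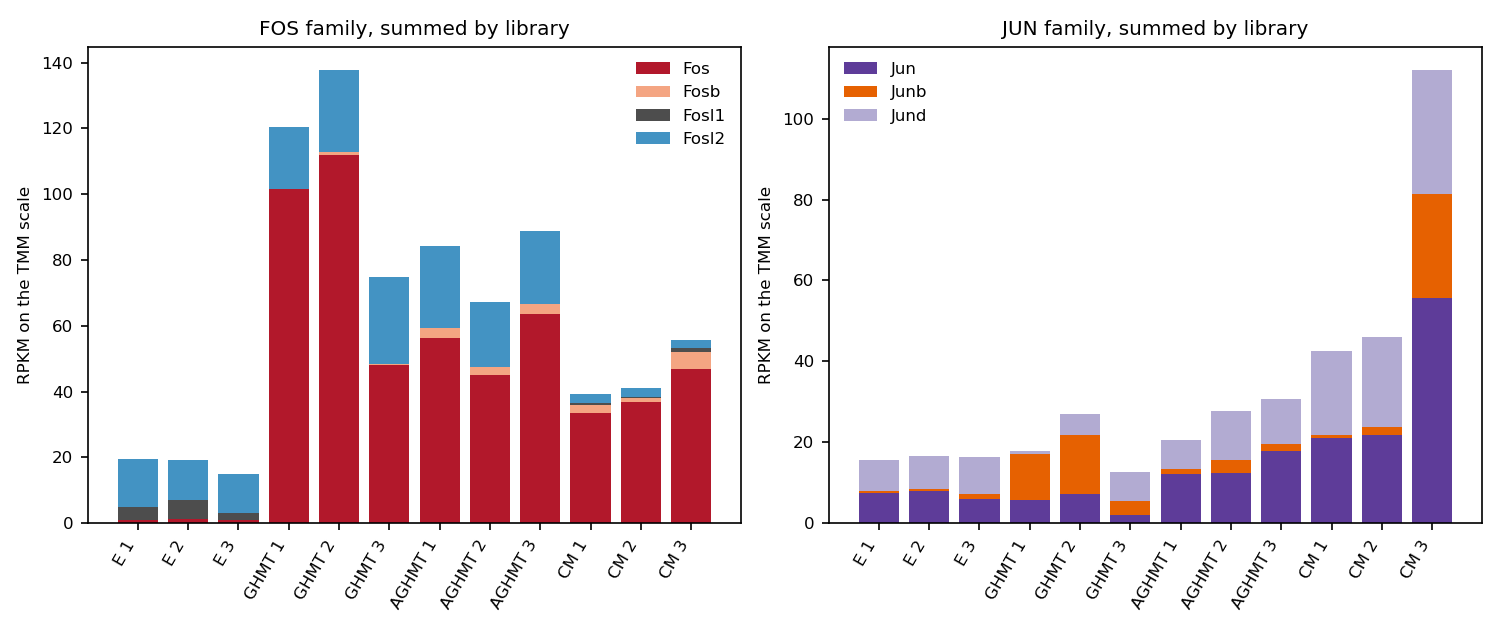
Summed RPKM of the 4 FOS genes (left) and the 3 JUN genes (right) in each of the 12 libraries, with the colours giving each gene's part. Fos makes up most of every FOS bar outside E, where Fosl2 and Fosl1 do, and the JUN bar of CM 3 is the tallest at 112 RPKM.

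Other immediate early genes did not move as 1 block with these. Of 34 listed genes 31 were tested, and 10 passed as higher and 12 as lower in GHMT against E, 5 and 9 in AGHMT-labelled cells, and 4 and 9 in CM. Of all genes, 19.8% passed as higher and 32.9% as lower in GHMT, and 21.9% and 24.6% in AGHMT-labelled cells. In CM 19.5% and 22.5% did, so most of these counts lie near the background. Their median log2 fold change was -0.82, -0.27 and -0.48, beside -1.06, -0.16 and -0.26 over all genes. Dusp1, which encodes a phosphatase that switches MAP kinases off, rose in all 3, from 10.1 CPM in E to 56.6 in GHMT (2.49, SE 0.35), 58.5 in AGHMT-labelled cells (2.53, SE 0.34) and 125 in CM (3.63, SE 0.36). Tiparp, an ADP-ribosyltransferase gene induced through the aryl hydrocarbon receptor, rose in the sorted groups to 563 to 766 CPM in GHMT (4.28, SE 0.41) and 332 to 474 in AGHMT-labelled libraries (3.60, SE 0.39). CM libraries, with 10.8 to 26.8 CPM, overlapped with E (21.3 to 48.6). The mRNA-decay gene Zfp36 passed as higher in all 3 groups as well, and in CM Klf2 (2.91) and the nuclear receptor gene Nr4a1 (2.48) did. Zfp36 and Nr4a1 were picked after their values were seen.

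Several members of that list fell. Ptgs2, which encodes the inducible cyclooxygenase COX-2, fell from 152 to 408 CPM in E to 12.4 to 72.4 in GHMT (-2.55, SE 0.57), 31.5 to 34.7 in AGHMT-labelled libraries (-3.07, SE 0.57) and 1.20 to 5.13 in CM (-6.39, SE 0.67). The matrix protein gene Ccn2 also fell in all 3 (-2.09, -1.81 and -3.36), but in GHMT the GC correction ended the call (-0.58, adjusted p = 0.231). Nfil3, a leucine zipper repressor, had no read in GHMT, at least 14.0-fold lower than in E. Egr2, a relative of Egr1, stood at 7.09 to 8.08 CPM in E and 5.12 to 7.47 in AGHMT-labelled libraries, with 1 read in all GHMT libraries together and 1.19 to 1.37 CPM in CM (-2.62 against E, adjusted p = 0.00158). It passed as lower in GHMT than in E (adjusted p = 4.60e-04) and as higher in AGHMT-labelled than in GHMT libraries (adjusted p = 0.00471). Klf6, the gene of the list with the highest mean log2 CPM, rose in GHMT (1.43, SE 0.30) and fell in CM (-1.06, SE 0.29). Corrected for GC, the list counted 15 higher and 4 lower in GHMT, 12 and 4 in AGHMT-labelled cells, and 5 and 11 in CM. That correction moved all genes too. In GHMT it called 4714 of all genes higher and 1810 lower, against 2979 and 4948 in the main fit. In AGHMT-labelled cells it called 3316 and 2965, and in CM 3809 and 3668. The shares given for the main fit therefore do not apply to the corrected counts.

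Genes that act before the members were counted next. Of 20 kinases, kinase substrates and cofactors of the pathway, 7 passed as higher and 6 as lower in GHMT against E, 5 and 5 in AGHMT-labelled cells, and 1 and 2 in CM, or 9 and 1, 3 and 3, and 1 and 3 once corrected for GC. In GHMT against E 19.8% of all genes passed as higher and 32.9% as lower in the main fit. Once corrected for GC, 4714 of all genes passed as higher and 1810 as lower there. With that correction 3316 and 2965 did in AGHMT-labelled cells, and 3809 and 3668 in CM. Beside the 21.9% higher and 24.6% lower of all genes, the counts in AGHMT-labelled cells lie near the background, and CM lies below its 19.5% and 22.5%. Nab1 and Nab2 encode corepressors of EGR proteins and went apart. Nab1 rose in GHMT (2.41, SE 0.36) and AGHMT-labelled cells (2.05, SE 0.36), whereas Nab2 fell from 24.9 CPM in E to 1.06 in AGHMT-labelled cells (-4.55, SE 0.73) and to 3 reads in all GHMT libraries together. Mapk3, which encodes ERK1, had 3 reads in GHMT and 0.856 CPM in AGHMT-labelled cells (-4.83, SE 1.02), against 24.8 CPM in E. Map2k1, which encodes a MAP kinase kinase, rose in GHMT (2.20, SE 0.39) and was the 1 gene of the list lower in AGHMT-labelled than in GHMT libraries (-1.71, SE 0.39, adjusted p = 0.00991). Of 6 other AP-1 partners 3 were tested. Atf2 and Atf7 passed as higher in GHMT (1.07 and 0.94), and Jdp2, a repressor of AP-1, as lower in AGHMT-labelled cells (-3.49, SE 1.03). The GC correction ended the calls of Atf2 (adjusted p = 0.0509) and Jdp2 (adjusted p = 0.0894).

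Genes known as AP-1 targets mostly passed as lower than in E. Of 15 listed and tested, 3 passed as higher and 11 as lower in GHMT against E, 1 and 9 in AGHMT-labelled cells, and 0 and 14 in CM. Of all genes 32.9%, 24.6% and 22.5% passed as lower in these comparisons. Their medians were -3.96, -2.83 and -4.62, beside -1.06, -0.16 and -0.26 over all genes. With genes without reads at their bound, the median in GHMT was -2.25, beside -0.34 over all genes. Timp1, an inhibitor of matrix metalloproteinases, stood at 103 to 535 CPM in E, 5.73 to 7.87 in GHMT, 13.1 to 22.1 in AGHMT-labelled libraries and 1.61 to 1.93 in CM. The differences were -5.68, -4.30 and -7.502 on the log2 scale. Spp1, which encodes osteopontin, was 2.62, 2.90 and 9.31 lower on that scale (-2.62, -2.90 and -9.31). The urokinase receptor gene Plaur had no read in GHMT, at least 7.08-fold lower than in E, a call that ended with the GC correction (adjusted p = 0.0628). Exceptions included the cytokine gene Il6 and, in GHMT, the hyaluronan receptor gene Cd44 (1.47, SE 0.29). Il6 stood at 4.10 to 6.88 CPM in E, 3.44 to 51.1 in GHMT (2.43, SE 0.70) and 41.4 to 48.3 in AGHMT-labelled libraries (3.03, SE 0.70), with 2 reads in all CM libraries together. Corrected for GC, the counts were 3 and 7, 1 and 8, and 0 and 14. Over all genes they were then 4714 and 1810, 3316 and 2965, and 3809 and 3668. Several of these targets are also known as genes of cultured fibroblasts, and the summed level of 10 fibroblast markers was 3854 to 5500 CPM in GHMT, 7328 to 8347 in AGHMT-labelled cells and 693 to 753 in CM. Its part in the result was not tested.

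Heat shock genes, which tissue dissociation is also known to induce, were counted as well. Of 11 tested, 2 passed as higher and 4 as lower in GHMT against E, 2 and 2 in AGHMT-labelled cells, and 4 and 2 in CM, or 3 and 2, 3 and 3, and 4 and 2 once corrected for GC. Of all genes 19.8% passed as higher and 32.9% as lower in GHMT, 21.9% and 24.6% in AGHMT-labelled cells, and 19.5% and 22.5% in CM. The uncorrected counts in the sorted groups thus lie near the background. Once corrected for GC, 4714 of all genes passed as higher and 1810 as lower in GHMT. With that correction 3316 and 2965 did in AGHMT-labelled cells, and 3809 and 3668 in CM. Hspa1a, the classical inducible HSP70 gene, stood at 0.397 to 0.602 CPM in E, 2.46 to 4.18 in AGHMT-labelled libraries (2.83, SE 0.58) and 6.01 to 8.45 in CM (3.93, SE 0.61). It had no read in GHMT, where the pooled floor of 0.725 CPM lies above the levels in E. GHMT therefore cannot be placed against E for this gene. Bag3, a cochaperone of the Z-disc, rose in CM to 193 to 339 CPM (2.48, SE 0.38). Hspa8, the constitutive HSP70 gene, fell in GHMT (-4.62, SE 0.68) and AGHMT-labelled cells (-3.18, SE 0.59).

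**Figure D5:**
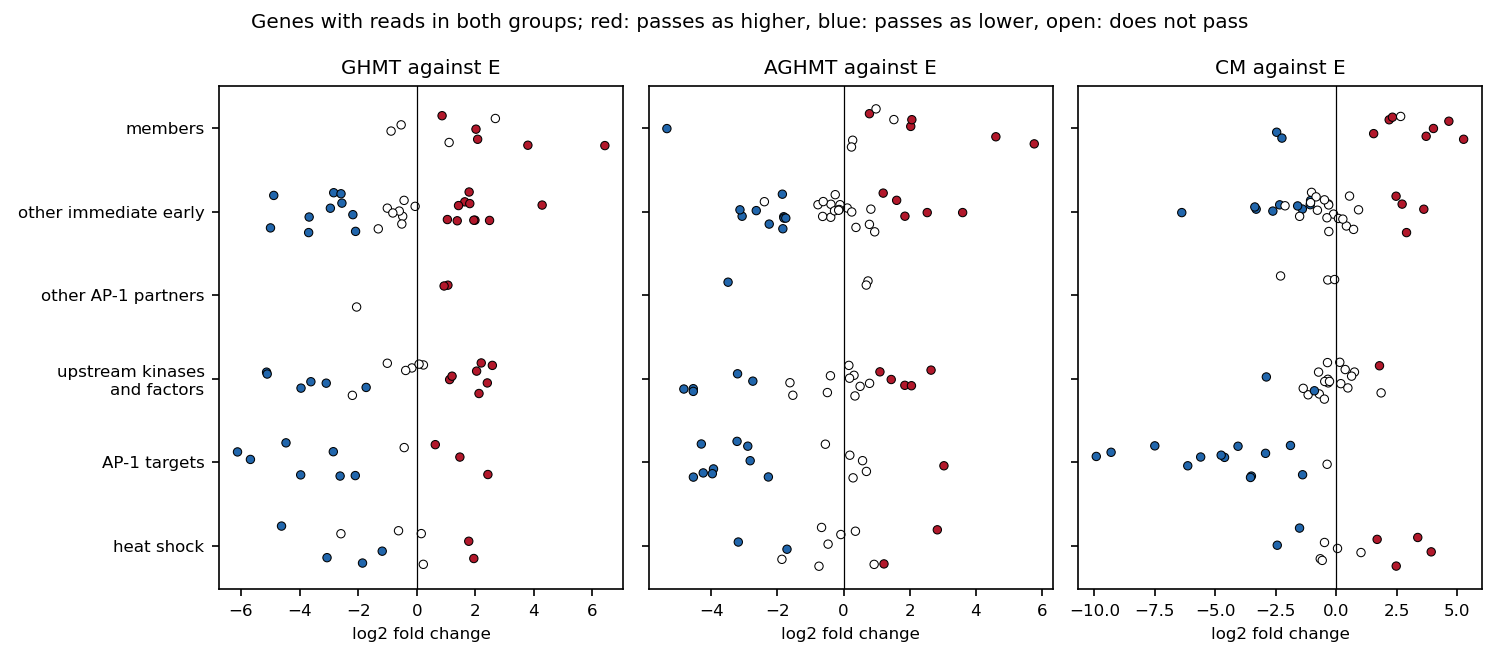
Log2 fold change against E of the members and of 5 other lists, 1 point per gene with reads in both groups, spread vertically only to separate them; red points pass as higher, blue as lower, open points do not pass, and the horizontal ranges differ between panels. In CM against E, 7 of 10 members passed as higher while 14 of 15 AP-1 targets passed as lower.

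Markers of other cell types moved with some of these results. In CM all 8 endothelial markers were detected with a summed level of 485 to 696 CPM, against 8.52 to 11.1 in E, 2.62 to 11.98 in GHMT and 62.6 to 73.7 in AGHMT-labelled libraries. All 8 macrophage markers were detected in CM (108 to 158 CPM), AGHMT-labelled libraries (46.2 to 102) and E (7.09 to 12.9). In GHMT 5 of 8 were at 0, Cd68, Adgre1, Cd14, C1qa and C1qb, with a sum of 1.31 to 2.61. There 3 reads stand for 1.56 to 3.93 CPM, so a low level would go unseen. The 6 smooth muscle and pericyte markers summed to 1105 to 5545 CPM in E and 309 to 531 in GHMT. Their sums were 647 to 843 CPM in AGHMT-labelled libraries and 799 to 1304 in CM. Against E, 4 of 6 passed as lower and 0 as higher in GHMT. In AGHMT-labelled cells 4 passed as lower and 2 as higher. Of all genes, 32.9% and 24.6% passed as lower in these comparisons, and 19.8% and 21.9% as higher. Of 6 mast cell markers only Mcpt4 was detected in GHMT, and the list summed to 65.5 to 162 CPM there and 311 to 340 in AGHMT-labelled libraries. Neutrophil and lymphocyte markers summed to at most 2.31 CPM in any library. Endothelial cells and macrophages are known to express Fos, Jun, Egr1, Atf3 and Klf2, and their part in the CM levels was not tested.

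Genes with the most similar profile over the 12 libraries were listed for the 6 members with a mean of at least 10 CPM, among 7102 genes, as a description with no test. The points share library, depth and base composition. Fos was most like Dsp, the desmosomal desmoplakin gene (Pearson r of log2 CPM 0.996), Ldb3 of the Z-disc (0.993) and Cbfa2t3 (0.988). Fosl2 was most like Loxl2, Cdo1 and Sh3rf3 (0.986 to 0.990). Egr1 was most like Fbxl22, Ehd4 and Pdzd2 (0.955 to 0.964), Jund like Ogdhl, Pccb and Atp5h (0.973 to 0.980), and Jun like Smim20, Eci1 and Cirbp (0.929 to 0.952). Junb had no close match, with Gigyf1 first at 0.820. Among the members themselves, Fos and Fosl1 ran opposite over the libraries (Pearson r -0.86, Spearman rho -0.82), and Fos and Jun showed little relation (0.20 and -0.14).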

How the data were processed

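For every library the authors deposited raw counts per Ensembl gene, with reads in no gene or in several given apart. Per the labels, RNA was taken up in TRIzol and made into libraries with a stranded TruSeq kit. The submitters' processing notes name Bowtie2 2.0.6, the mm10 build, HTSeq and DESeq. Neither the annotation version nor the strand option of HTSeq is given in the sources used here. The authors' table of normalized signal is the same counts over 1 size factor for each library. Its values gave whole reads within 0.001 of a read, with the totals of the count files, and it served only as an alternative. Reads in no gene, 8.45% to 20.2% per library, stayed out of the tests.

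Symbols, positions, exon lengths and GC content came from GENCODE M21 (GRCm38, the build of mm10), and promoter sequences from RefSeq (GRCm38.p6). Low genes were removed by edgeR 4.0.16 (filterByExpr, minimum count 10, minimum total 15). All 12 libraries entered 1 robust quasi-likelihood fit with TMM scaling and no replicate block, and 6 pairs of groups were compared. Mean values are ± SD over 3 libraries. Where a gene had no reads, its floor is 3 reads pooled over a group, which covers counting error only. The script was tested on simulated counts, in which far fewer genes were changed than passed in the data. It recovered 1.52% of log2 changes of 1, 16.4% to 22.4% of changes of 2 and 40.3% to 61.2% of changes of 3. It called 1 to 4 unchanged genes per comparison. A difference that did not pass is therefore not shown to be absent.

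The members and gene lists were chosen with earlier results of these data known. All 10 members are named. From each other list the rule takes the gene with the highest mean log2 CPM and the passing genes with the largest fold changes, 3 in each comparison with E and between both sorted groups, and 2 in those with CM as second group. The text names only some of the genes this rule takes, and marks genes outside it. Alternatives were edgeR with the size factors of DESeq2 or with total counts, scaling without mitochondrially encoded genes, no filter, above 1 CPM in 3 libraries, a replicate block, only the 2 groups compared, thinning to 1 depth, a GC correction, DESeq2 1.42.0, limma 3.58.1 on log2 of the deposited values plus 1, and each library left out. Thinning of nuclear reads and leaving out GHMT 1, CM 3 and E 1 together were added after the data were seen.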

Additional observations from a re-analysis of the deposited data

How the results depend on the processing

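The number of members passing moved by over 1.5 times in these alternatives, and the causes were not tested. In AGHMT-labelled against E, 6 in the main fit, it was 3 with total counts and 10 after the GC correction. In AGHMT-labelled against GHMT, 2 in the main fit, it was 0 with DESeq2's size factors, with the replicate block, with only the 2 groups compared and after thinning, 1 with DESeq2 and with limma, 4 without a filter and 5 after the GC correction. In GHMT against CM, 7 in the main fit, it was 4 after thinning of nuclear reads. In AGHMT-labelled against CM, 5 in the main fit, it was 8 with DESeq2's size factors and with DESeq2, and 2 with total counts and with the replicate block. With 1 library left out the number ranged from 3 to 7 in GHMT against E (3 without E 1), 4 to 7 in AGHMT-labelled against E, 7 to 10 in CM against E, 0 to 3 in AGHMT-labelled against GHMT, 6 to 8 in GHMT against CM and 2 to 6 in AGHMT-labelled against CM. In AGHMT-labelled against GHMT it was 0 of 10 without GHMT 1, AGHMT 1, AGHMT 2, CM 1 or E 2 and 1 without E 3. It was 2 of 10 in AGHMT-labelled against CM without AGHMT 1, AGHMT 2, AGHMT 3, CM 3 or E 2 and 3 without E 1. Without GHMT 1, CM 3 and E 1 together it was 7, 6 and 8 in the comparisons with E.

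Log2 fold changes that turned sign after the GC correction were those of Jun in GHMT against E (2.24), Egr1 in AGHMT-labelled against GHMT (-1.27), Fosb (0.48), Jun (0.30), Jund (0.37) and Egr1 (2.69) in GHMT against CM, and Fosb (1.68), Jun (0.35), Jund (0.89) and Egr1 (1.42) in AGHMT-labelled against CM. With total counts Fosl2 turned in GHMT (-0.48) and AGHMT-labelled cells (-0.0634) against E, and without GHMT 3 Ier2 turned in GHMT against CM (-3.91). Another 79 sign changes concerned differences that passed in neither fit. Direction and call held in 1201 values, 126 lost the call and 60 gained it.

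Over all genes, higher calls were 37.6% of the calls in GHMT against E, but 72.3% after the GC correction and 12.04% with total counts. In AGHMT-labelled against GHMT they were 74.3%, 19.3% and 95.4%, and in GHMT against CM 40.7%, 66.4% and 32.9%. With DESeq2's size factors the split was 28.7% against 49.4% in AGHMT-labelled against CM 58.3% against 46.4% in CM against E, 63.7% in AGHMT-labelled against GHMT and 30.5% in GHMT against CM. With total counts it was 23.3% against 47.0% in AGHMT-labelled against E and 22.7% in CM against E, and without mitochondrially encoded genes 90.4% in AGHMT-labelled against GHMT. Genes passing in AGHMT-labelled against GHMT, 2682 in the main fit, numbered 1355 with the replicate block, 1740 with only the 2 groups, 1677 after thinning of nuclear reads, 4684 after the GC correction, 4679 with limma and 1037 to 4073 with 1 library left out (1377 without AGHMT 1, 1037 without AGHMT 2, 4073 without E 1). Thinning of nuclear reads gave 4973 against 7927 genes in GHMT against E, 3370 against 6998 in AGHMT-labelled against E, 3435 against 6319 in CM against E, 5465 against 8821 in GHMT against CM and 3837 against 7244 in AGHMT-labelled against CM. Thinning of all reads gave 4313, 4017 and 4635 in AGHMT-labelled against E, CM against E and AGHMT-labelled against CM. Only the 2 groups gave 4980 in GHMT against CM, and AGHMT-labelled against E had 4522, 4238 and 4356 without AGHMT 1, AGHMT 3 and E 1.

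Libraries with the same number in different groups did not deviate together (correlations of -0.72 to 0.13, over 0.1 in 2 of 18 pairs), so the numbers were not taken as pairs. The shallow GHMT libraries limit Fosb, Fosl1, Jun, Jund, Atf3 and Ier2 to at most 44 reads per library.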
